A study of Mus musculus with 8 samples.

Results

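Blood and immune cell marker genes were followed in RNA from muscle stem cells of mice given ketone bodies or saline. The 36 genes were chosen by name, with earlier results of these data known. The deposited table held 33 of them among 25237 gene rows. Ighm, Igkc and Trbc2, which encode constant parts of antibodies and of the T cell receptor, were not analysed here. The 33 genes fell into 4 B cell genes, 4 T and natural killer (NK) cell genes, 13 myeloid genes, 9 genes shared by most white blood cells (called pan-leukocyte) and 3 erythroid genes. The ketone group had 4 libraries from male mice treated with ketone bodies, with strain entries of C57BL/7, C57BL/8, C57BL/9 and C57BL/9. The PBS group had 4 libraries from male mice treated with phosphate-buffered saline, all entered as C57BL/6. If these entries name strains, strain and treatment cannot be told apart. All mice were wild type and 2 to 4 months old, and the sources used here give no dose, route or duration. Cells from hindlimb muscle were kept by the sort if they showed VCAM1 and lacked Sca1, CD31 and CD45. Whether the libraries of a group stem from separate mice is not stated, so the p-values reflect only how these libraries vary, some of which may be technical.

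Blood cells carry lineage-specific transcripts by which they can be recognised in a mixed RNA sample. B cells display the antibody receptor with its signalling chains, T cells the CD3 complex, macrophages secrete lysozyme and complement C1q, neutrophils store S100 proteins, and red cell precursors make haem and globin. Resident macrophages live in the connective tissue of muscle, and neutrophils and monocytes enter it with the blood. CD45, the product of Ptprc, lies on nearly all white blood cells, and the sort removed cells that showed it. In bulk RNA, fewer cells of a type and less RNA per cell cannot be told apart.

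The libraries held 19174005 to 36870537 recovered reads. Ketone library 1 was the deepest and PBS library 4 the shallowest, and all values below are normalized counts, that is reads divided by 1 factor per library. Stem cell transcripts were abundant in both groups. Pax7, the transcription factor that marks muscle stem cells, was at 1500.1 to 2014 in ketone libraries and 1858 to 2541 in PBS libraries (log2 change -0.24, adjusted p = 0.265). Vcam1, the positive sort marker, was at 15580 to 40055 in ketone libraries and 38702 to 46391 in PBS libraries (log2 change -0.85, adjusted p = 0.0206). Of 10 muscle stem cell genes, 4 fell, Vcam1 among them. Transcripts of the negative sort markers were detected in both groups. Pecam1, which encodes CD31, was at 2130.4 to 5606 in ketone libraries and 649 to 907 in PBS libraries (log2 change 2.45, adjusted p = 1.68e-05). Ly6a, which encodes Sca1, was at 2319.6 to 6102 in ketone libraries and 506 to 569 in PBS libraries (log2 change 3.10, adjusted p = 3.28e-06). Endothelial markers also differed, as 10 of 10 listed genes rose, with a summed level of 14732 to 29336 in ketone libraries and 5143 to 5958 in PBS libraries. The part of these cells in the results on blood genes was not tested.

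Blood and immune transcripts were low in both groups and higher in most ketone libraries. Their summed level was 9056, 1407, 2671 and 5498 in ketone libraries 1 to 4, against 1032, 1395, 948 and 1298 in PBS libraries 1 to 4. Ketone library 2 thus lay just above the highest PBS library, and ketone library 1 lay far above all others. Without Lyz2, the most abundant member, the sums were 4795, 1049, 1601 and 3006 in ketone libraries, against 715, 1053, 646 and 761 in PBS libraries, so that ketone library 2 was then level with PBS library 2. With Lyz2 the sum was 0.00515% to 0.0385% of all normalized counts in ketone libraries and 0.00343% to 0.00505% in PBS libraries. Of the 33 genes, 31 were above 0 in at least 1 library and 27 reached the mean of 10 needed to be tested. Of those 27, 9 rose, 0 fell and 18 did not pass at an adjusted p below 0.05 by limma, with 0 lower at an unadjusted p below 0.05. Over all 14022 genes tested, 12.8% were called higher and another 12.8% lower. As the members were chosen with earlier results of these data known, such shares describe the list and do not test it. Among the 20 tested members with a mean below 100, 6 rose and 0 fell, where 13.9% of all genes at such a level rose and 4.58% fell. Of the members that rose, Ms4a1, Cd40, Cd37 and Cd52 had PBS means below 10 (1.57, 1.84, 7.06 and 7.94). They entered the test through the ketone libraries alone and could hardly have been called lower, which limits the counts of 9 and of 6. Over the 31 genes the median log2 change was 1.45, beside 0.05 over all genes above 0. The groups did not overlap for 7 members, all with the ketone libraries above, against 14.2% of all genes tested. With edgeR on the recovered reads 10 members rose and with DESeq2 15, and 0 fell with either. Over all 14022 genes tested, edgeR called 3597 changed in either direction and DESeq2 4179, beside 3600 by limma. Other genes of the same lineages were listed beside the members and are given with each class. Over those lists 14 genes rose and 0 fell by limma, with 2 lower at an unadjusted p below 0.05, while edgeR called 20 higher and 0 lower and DESeq2 24 higher and 0 lower. How many genes of each list were tested is given with its class. No share over all genes by direction is given for edgeR or DESeq2, so their counts describe the lists only.

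**Figure D1:**
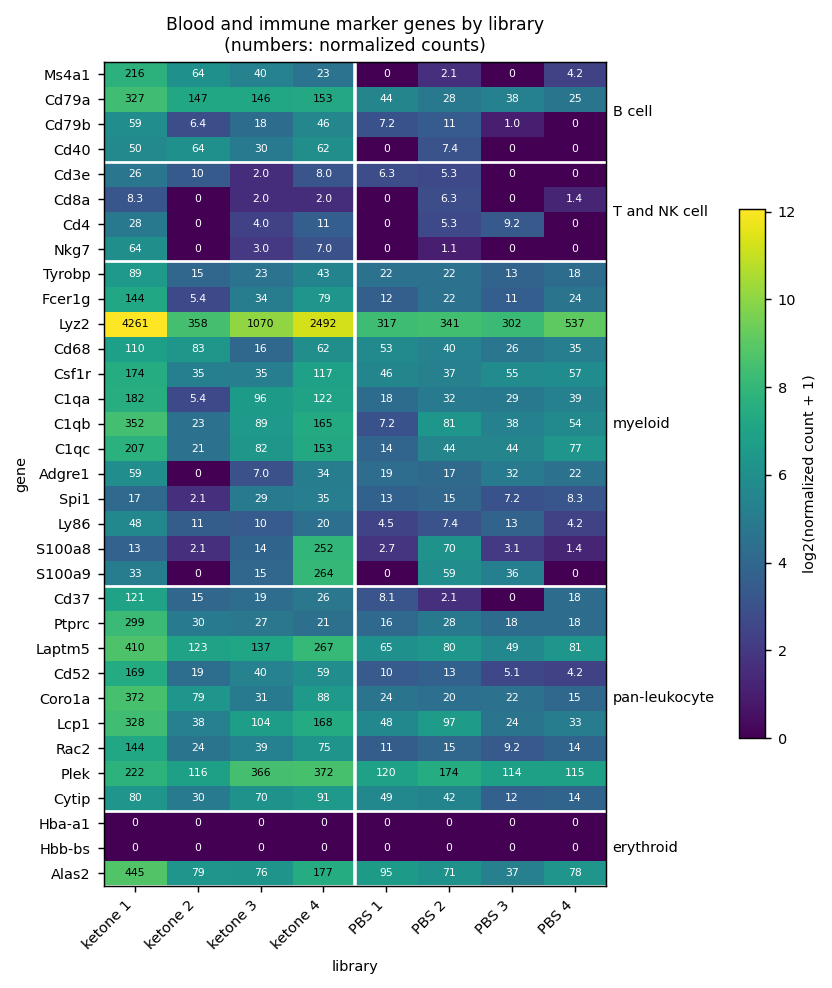
Normalized counts of the 33 measured marker genes (rows, grouped by class) in the 8 libraries (columns, ketone left and PBS right), with the colour on a log2(value + 1) scale and the value written in each cell. Ketone library 1 is the brightest column, Lyz2 the brightest row, and Hba-a1 and Hbb-bs are at 0 throughout.

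Which library carried the signal differed by gene. Of the 31 detected genes, 25 had their highest value of all 8 libraries in ketone library 1, 5 in ketone library 4 and 1 in ketone library 2. Over all genes tested, ketone library 1 was the highest of the ketone libraries for 28.9%. Ketone libraries 1 and 4 each exceeded every PBS library for 29 of the 31 genes, ketone library 3 for 20 and ketone library 2 for 10. No such share over all genes is given here, so these counts only describe the members. Ketone library 2 was the lowest ketone library for 21 genes and lay below every PBS library for 5. Leaving out ketone library 2, 17 of 28 tested members rose, beside 3622 of all 13941 genes changed in either direction. Leaving out ketone libraries 1 and 4 together, 3 rose and 1 fell. As library 2 was mostly the lowest and libraries 1 and 4 mostly the highest, the direction of these shifts followed from those levels. They show how far the calls rest on single libraries and add no support. The same holds for the fits without these libraries given below.

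**Figure D2:**
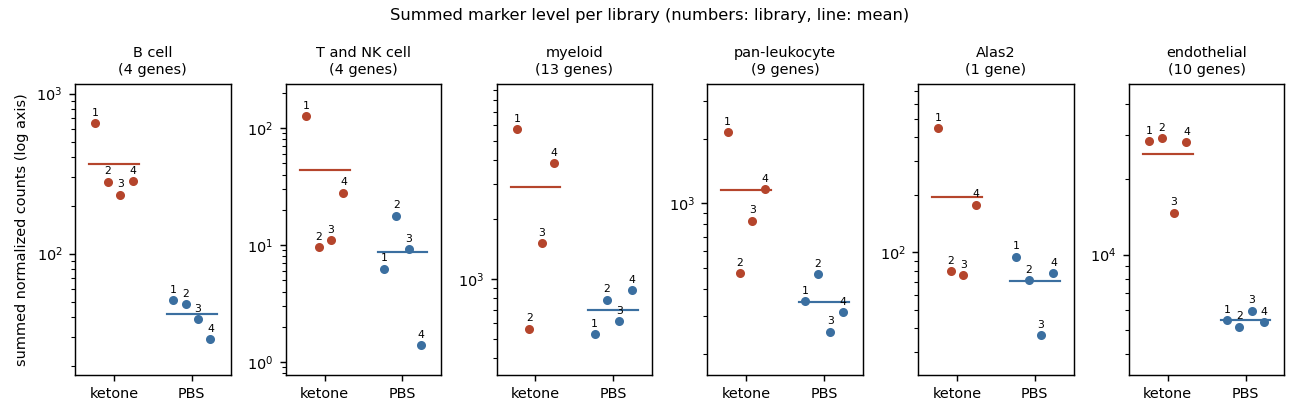
Summed normalized counts (log axes) of each class of marker genes and of 10 endothelial genes, with points for libraries 1 to 4 of each group and a line at the group mean. The ketone and PBS points separate for B cell and endothelial genes, while ketone library 2 lies among the PBS points for myeloid genes. For T and NK cell genes and Alas2, ketone libraries 2 and 3 lie among the PBS points. For pan-leukocyte genes ketone library 2 lies just above them.

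B cell transcripts gave the clearest difference between the groups. Their sum was 652, 282, 234 and 285 in ketone libraries 1 to 4, against 51.1, 48.3, 39.0 and 29.2 in PBS libraries 1 to 4. Of the 4 genes, 3 rose and 1 did not pass, with a median log2 change of 3.83. Cd79a encodes a signalling chain of the B cell receptor (chromosome 7, 24897381 to 24902197, GRCm38). It was at 327, 147, 146 and 153 in ketone libraries and 43.9, 28.4, 38.0 and 25.0 in PBS libraries. All 4 ketone values lay above all PBS values, and ketone library 1 stood apart from the other 3. Cd79a averaged 194 ± 89.2 in ketone libraries and 33.8 ± 8.67 in PBS libraries (mean ± SD, n = 4 each), a log2 change of 2.42 ± 0.34 (SE, adjusted p = 0.000214).

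Ms4a1 encodes the B cell surface protein CD20 (chromosome 19, 11249675 to 11266241). It was at 216, 64.4, 39.8 and 23.1 in ketone libraries, against 0, 2.10, 0 and 4.17 in PBS libraries. In whole reads this was 338, 60, 40 and 23 in ketone libraries and 0, 2, 0 and 3 in PBS libraries, so the gene was near the limit of detection in PBS. Its log2 change was 4.93 ± 0.86 on the log2(value + 1) scale (adjusted p = 0.00101). Cd40 encodes a receptor through which T cells help B cells and which other antigen-presenting and endothelial cells also carry (chromosome 2, 165055627 to 165072948). It was at 50.4, 64.4, 29.9 and 62.2 in ketone libraries, against 0, 7.35, 0 and 0 in PBS libraries. The groups did not overlap, and the log2 change was 4.90 ± 0.86 (adjusted p = 0.00106). In whole reads Cd40 was at 0, 7, 0 and 0 in PBS libraries, so it too was near the limit of detection there. With 0.5 or 5 added in place of 1, its log2 change was 5.65 or 3.13, and that of Ms4a1 5.52 or 3.38. Both genes reached the mean of 10 through the ketone libraries alone, with PBS means of 1.57 for Ms4a1 and 1.84 for Cd40. Cd40 and the endothelial sum were both highest in ketone library 2 and lowest in ketone library 3, but a link between them was not tested. For Cd79a, Ms4a1 and Cd40 the call held in every alternative in which they were tested, also without ketone libraries 1 and 4. These alternatives reuse the same libraries, so they are not independent support. As Ms4a1 and Cd40 entered the test through their ketone values, they could hardly have been called lower.

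Cd79b, the partner chain of Cd79a, was at 58.7, 6.44, 17.9 and 46.1 in ketone libraries, against 7.17, 10.5, 1.03 and 0 in PBS libraries. Ketone library 2 lay within the PBS range, and the gene did not pass (log2 change 2.76 ± 0.98, adjusted p = 0.0525). It passed in 6 of 20 alternatives, among them edgeR (adjusted p = 0.0495), DESeq2 (0.0161), library weights (0.0252) and the fit without ketone library 2 (0.0218), over a range of 0.0161 to 0.136. Of 17 further B cell genes measured, 13 were tested and 2 rose, and the sum was 565 to 2047 in ketone libraries and 207 to 305 in PBS libraries. Without Ebf1 the sums were 1463, 113, 235 and 269.7 in ketone libraries, against 142.5, 159, 94.4 and 117 in PBS libraries, so that ketone library 2 then lay inside the PBS range. The further genes with the highest means were Ebf1, Jchain and Cd22. Ebf1, a transcription factor of B cells and of stromal and fat precursors, was at 584, 633, 331 and 481 in ketone libraries, against 125, 146, 113 and 159 in PBS libraries (log2 change 1.86, adjusted p = 8.32e-05). The joining chain gene Jchain of antibody-secreting plasma cells reached 619 in ketone library 1, with 2.15 to 9.96 elsewhere in that group and 5.38 to 24.6 in PBS libraries. Cd22, an inhibitory co-receptor, reached 115 in ketone library 1, with 5.37 to 46.1 elsewhere in that group and 3.08 to 25.0 in PBS libraries. Jchain and Cd22 did not pass (adjusted p = 0.871 and 0.296). In ketone library 2 the B cell members Cd79a, Ms4a1 and Cd40 were thus above every PBS library, while Cd22 was within the PBS range.

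T and NK cell transcripts were close to the limit of detection. All 4 members had means below 10 and none was tested, so no call is given. Cd3e, a chain of the T cell receptor complex, was at 25.5, 9.66, 1.99 and 8.02 in ketone libraries, against 6.27, 5.25, 0 and 0 in PBS libraries. Nkg7, a granule protein of NK and killer T cells, was at 63.8, 0, 2.99 and 7.02 in ketone libraries, against 0, 1.05, 0 and 0 in PBS libraries. Only ketone library 1 stood out for Nkg7, and the groups overlapped for all 4 genes. The co-receptor Cd4 was at 28.1, 0, 3.98 and 11.0 in ketone libraries and 0, 5.25, 9.23 and 0 in PBS libraries. Cd8a did not exceed 8.29 in any ketone library or 6.30 in any PBS library. Of 18 further T and NK cell genes measured, 5 were tested and 2 rose. Lck, the kinase of the T cell receptor, was at 65.1, 75.1, 27.9 and 25.1 in ketone libraries and 8.06, 22.1, 9.23 and 20.9 in PBS libraries (log2 change 1.58, adjusted p = 0.0483). Cd247, the receptor's zeta chain, rose by 1.65 on the log2 scale (adjusted p = 0.0351). Gzma, a killer cell protease, reached 101 in ketone library 1, with 0, 0.996 and 16.0 in libraries 2 to 4 of that group and 0 to 1.05 in PBS libraries, and did not pass (adjusted p = 0.231).

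Myeloid transcripts were high in ketone libraries 1 and 4, mixed in ketone library 3 and low in ketone library 2. Their sum was 5689, 561, 1518 and 3839 in ketone libraries 1 to 4, against 528, 787, 609 and 877 in PBS libraries 1 to 4. Without Lyz2 the sums were 1428, 203, 448 and 1348 in ketone libraries, against 210.5, 445, 308 and 339.5 in PBS libraries, which put ketone library 3 level with PBS library 2 and ketone library 2 below every PBS library. Of the 13 genes, ketone library 4 exceeded every PBS library for 13, library 1 for 11, library 3 for 7 and library 2 for 1, while library 2 was below every PBS library for 5 and library 3 for 3. These counts too have no share over all genes beside them and only describe the members. In the test 1 of the 13 rose, 0 fell and 12 did not pass, with a median log2 change of 1.16 over all 13. Without ketone library 2 the median was 1.81, and without ketone libraries 1 and 4 it was -0.05. Lyz2 encodes lysozyme of macrophages and neutrophils (chromosome 10, 117277331 to 117282321). It was at 4261, 358, 1070.2 and 2492 in ketone libraries, against 317, 341, 302 and 537 in PBS libraries. Ketone library 2 lay inside the PBS range and the other 3 above it. Lyz2 rose by 1.96 ± 0.55 on the log2 scale (adjusted p = 0.0179). The call was lost without ketone library 4 (adjusted p = 0.0525), PBS library 2 (0.053) or PBS library 3 (0.0518), and without ketone libraries 1 and 4 together the change was 0.77 (adjusted p = 0.164). Per kilobase of exon, Lyz2 had the highest level of all detected members, at 1554 normalized counts in ketone and 284 in PBS, and the next highest, S100a9, had 149 in ketone and 45.4 in PBS.

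The complement C1q genes, which encode the 3 chains of 1 protein made by tissue macrophages, went together across libraries. C1qa was at 182, 5.37, 95.6 and 122 in ketone libraries, against 17.9, 31.5, 28.7 and 39.0 in PBS libraries. C1qb was at 352, 22.5, 88.6 and 165 in ketone libraries, against 7.17, 80.9, 38.0 and 54.3 in PBS libraries. C1qc was at 207, 21.5, 81.6 and 153 in ketone libraries, against 14.3, 44.1, 44.1 and 76.5 in PBS libraries. Each was highest in ketone library 1 and lowest of the ketone libraries in library 2, and none passed (log2 changes 1.06, 1.61 and 1.16, adjusted p = 0.366, 0.150 and 0.206). Without ketone library 2 all 3 passed. Adgre1, a surface receptor that marks mouse macrophages, was at 58.7, 0, 6.97 and 34.1 in ketone libraries, against 18.8, 16.8, 31.8 and 22.3 in PBS libraries. It was the 1 tested member with a negative change (log2 change -1.0 ± 1.02, adjusted p = 0.505), and without ketone library 2 the change was 0.17. Without ketone libraries 1 and 4 it fell by 3.01 on the log2 scale (adjusted p = 0.0382). Csf1r, the receptor for the macrophage growth factor, was at 174, 35.4, 34.8 and 117 in ketone libraries and 36.8 to 57.05 in PBS libraries. The lysosomal protein gene Cd68 was at 110, 82.6, 15.9 and 62.2 in ketone libraries and 25.7 to 52.9 in PBS libraries, so that here ketone library 2 lay above, and ketone library 3 below, every PBS library. The signalling adaptors Tyrobp and Fcer1g spanned 15.0 to 88.7 and 5.37 to 144 over the ketone libraries, and 13.3 to 22.4 and 11.3 to 23.7 over the PBS libraries. Spi1, the transcription factor PU.1 of the myeloid lineage, was at 2.15 to 35.1 in ketone libraries and 7.18 to 14.7 in PBS libraries. Ly86, a partner of a Toll-like receptor homologue, was at 9.96 to 48.5 in ketone libraries and 4.17 to 13.3 in PBS libraries. None of these 6 passed (adjusted p = 0.196 to 0.699).

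Among 20 further macrophage and monocyte genes, 17 were tested and 3 rose. The highest on average were Cd14, Ly6c2 and Ctss. Cd14, a receptor for bacterial lipopolysaccharide, was at 552 to 910.5 in ketone libraries and 282 to 371 in PBS libraries (log2 change 1.17, adjusted p = 0.000694). Ly6c2, a monocyte surface gene with a close family member in endothelial cells, was at 861, 437, 173 and 504 in ketone libraries and 39.9 to 51.3 in PBS libraries (log2 change 3.25, adjusted p = 5.04e-05). Its lowest ketone value was in library 3, where the endothelial sum was also lowest. Its highest was in library 1, while the endothelial sum was highest in library 2, and a link between them was not tested. Ctss, a lysosomal protease, was at 429, 24.7, 134 and 157 in ketone libraries and 34.9 to 106 in PBS libraries, and did not pass (adjusted p = 0.298). The order of Ctss over the ketone libraries was that of Lyz2 at both ends, with library 1 highest and library 2 lowest.

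The granulocyte genes S100a8 and S100a9, whose products form the protein calprotectin of neutrophils, had another pattern. S100a8 was at 12.8, 2.15, 13.9 and 252 in ketone libraries, against 2.69, 70.4, 3.08 and 1.39 in PBS libraries. S100a9 was at 33.2, 0, 14.9 and 264 in ketone libraries, against 0, 58.8, 35.9 and 0 in PBS libraries. Ketone library 4 was highest for both and PBS library 2 was the highest PBS library, and neither passed (log2 changes 1.5 ± 1.29 and 1.51 ± 1.65, adjusted p = 0.423 and 0.535). The neutrophil granule gene Ngp had the same 2 peaks, at 1.28, 4.29, 13.9 and 728 in ketone libraries and 0.896, 23.1, 2.05 and 0 in PBS libraries. The granule genes Camp and Ltf, named after their values were seen, reached 114 and 55.1 in ketone library 4, with at most 3.83 elsewhere in that group, while PBS library 2 had 9.45 and 5.25 and the other PBS libraries 0. Outside the naming rule, Ly6g, which defines mature mouse neutrophils, did not exceed 0.638 in any ketone library or 2.05 in any PBS library. Csf3r, their growth factor receptor, did not exceed 5.97 in any ketone library or 1.05 in any PBS library. Both were at 0 in ketone library 4, but were too low throughout to describe any single library. Among the 13 neutrophil genes listed, 6 peaked in ketone library 4, including Elane (11.0), Mmp8 (9.02) and Mpo (6.02). Of 13 neutrophil genes, 5 were tested and 1 rose. Mmp9, a gelatinase of neutrophil granules named after its values were seen, was at 23.6, 0, 12.9 and 3.01 in ketone libraries and 45.7, 25.2, 21.5 and 33.4 in PBS libraries, and did not pass (log2 change -2.36, adjusted p = 0.0682). The gene that rose was Lcn2, an iron-scavenging protein also made by many stressed tissues, at 94.4 to 216 in ketone libraries and 10.8 to 35.9 in PBS libraries (log2 change 2.86, adjusted p = 0.00034). Il1b, an inflammatory cytokine, was at 168, 11.8, 37.8 and 98.3 in ketone libraries and 23.7 to 42.0 in PBS libraries (adjusted p = 0.422).

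Of the mast cell genes, 4 of 7 were highest in ketone library 3, and 6 were above 0 in PBS library 2. Ms4a2 was above 0 only in PBS library 2, at 3.15, and Fcer1a was at 0 throughout. Tpsb2 and Mcpt4, proteases of mast cell granules, were at 85.6 and 57.7 in ketone library 3, at 15.8 each in PBS library 2, and at 0 in the other 6 libraries. Hdc, which makes histamine, was spread more widely, at 4.47, 51.5, 20.9 and 69.2 in ketone libraries and 4.17 to 17.9 in PBS libraries. Of 7 mast cell genes, Hdc and Tpsb2 were tested and neither passed (adjusted p = 0.203 and 0.839). Among 8 dendritic cell genes, 3 were tested and 2 rose. Zbtb46, a transcription factor of dendritic and endothelial cells, was at 466 to 1213 in ketone libraries and 370.4 to 465 in PBS libraries (log2 change 0.79, adjusted p = 0.034). The chemokine receptor gene Ccr7 was at 36.5 to 156 in ketone libraries and 6.96 to 34.7 in PBS libraries (log2 change 2.17, adjusted p = 0.0129), and Cd209a did not pass (adjusted p = 0.234).

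**Figure D3:**
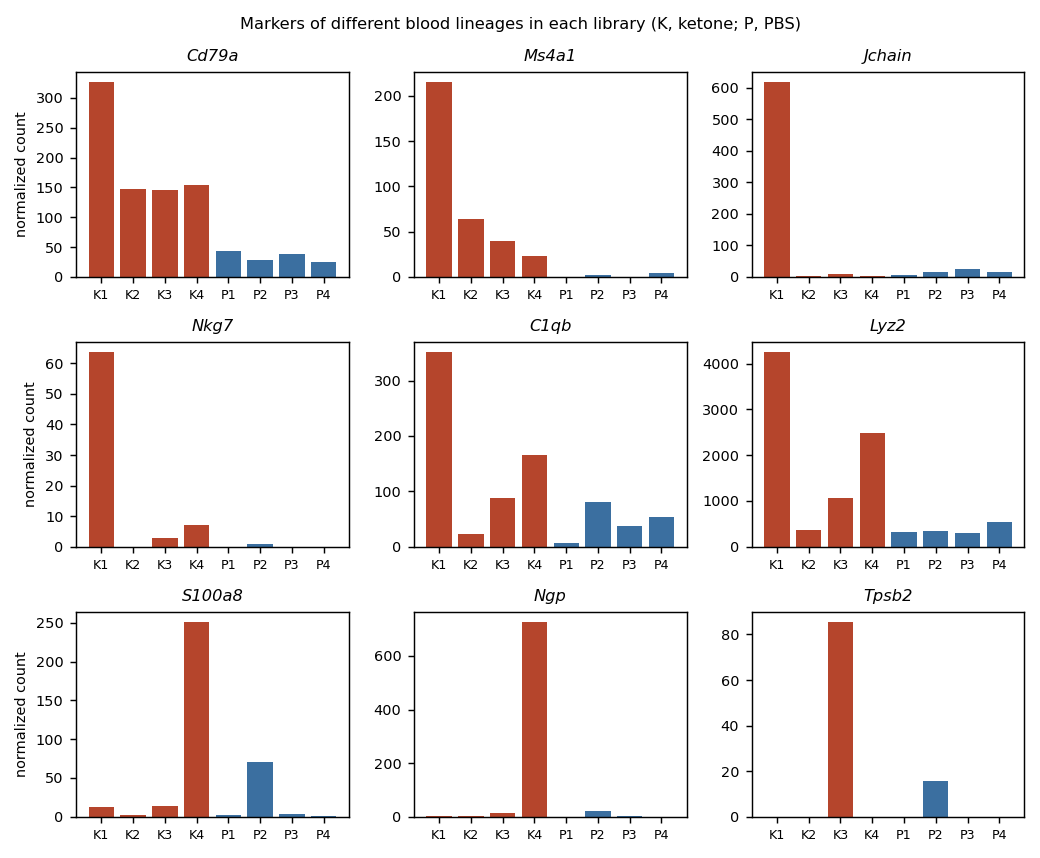
Normalized counts (linear axes from 0) of 9 lineage markers in ketone libraries K1 to K4 and PBS libraries P1 to P4. Jchain and Nkg7 peak in K1, S100a8 and Ngp in K4 with a smaller PBS peak in P2, Tpsb2 in K3 and P2, while Cd79a and Ms4a1 are above all PBS libraries in each ketone library.

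Genes shared by most white blood cells were higher in ketone libraries, most so in library 1. Their sum was 2144, 474, 832 and 1168 in ketone libraries 1 to 4, against 352, 470.5, 253 and 313 in PBS libraries 1 to 4. Of the 9 genes, 5 rose, 0 fell and 4 did not pass, with a median log2 change of 1.61. Laptm5, a lysosomal membrane protein of blood cells (chromosome 4, 130913125 to 130936141), was at 409.6, 123, 137 and 267 in ketone libraries, against 65.4, 79.8, 49.2 and 80.7 in PBS libraries. The groups did not overlap, and Laptm5 rose by 1.61 ± 0.37 on the log2 scale (adjusted p = 0.00611). Coro1a, an actin regulator (chromosome 7, 126699773 to 126707787), was at 372, 79.4, 30.9 and 88.2 in ketone libraries, against 24.2, 19.95, 21.5 and 15.3 in PBS libraries (log2 change 2.19 ± 0.59, adjusted p = 0.0151). Rac2, a blood cell GTPase (chromosome 15, 78559167 to 78572783), was at 144, 23.6, 38.8 and 75.2 in ketone libraries, against 10.8, 14.7, 9.23 and 13.9 in PBS libraries (log2 change 2.15 ± 0.56, adjusted p = 0.0124). Both were above all PBS libraries in each ketone library.

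Cd52, a small surface glycoprotein gene of lymphocytes (chromosome 4, 134082448 to 134095082), was at 169, 19.3, 39.8 and 59.2 in ketone libraries, against 9.86, 12.6, 5.13 and 4.17 in PBS libraries. The groups were apart and Cd52 rose by 2.71 ± 0.66 on the log2 scale (adjusted p = 0.00877). Cd37, a tetraspanin of B cells and other leukocytes (chromosome 7, 45233632 to 45239115), was at 121, 15.0, 18.9 and 26.1 in ketone libraries, against 8.06, 2.10, 0 and 18.1 in PBS libraries. Its groups overlapped, its adjusted p was 0.0498, and it did not pass in 15 of 21 alternatives (adjusted p up to 0.283). Cd52 and Cd37 had PBS means of 7.94 and 7.06, so both reached the mean of 10 through the ketone libraries alone. Without ketone libraries 1 and 4 together, Laptm5, Coro1a, Rac2 and Cd52 did not pass (adjusted p = 0.0625, 0.114, 0.157 and 0.115), and Coro1a was also lost without ketone libraries 1 and 2 (adjusted p = 0.0642). Ptprc, which encodes CD45, was at 299, 30.1, 26.9 and 21.1 in ketone libraries, against 16.1, 28.4, 18.5 and 18.1 in PBS libraries. Its level in ketone libraries 2 to 4 was close to the PBS range, and it did not pass (log2 change 1.23 ± 0.70, adjusted p = 0.217). The actin-bundling gene Lcp1 was at 37.6 to 328 in ketone libraries and 23.6 to 96.6 in PBS libraries. Plek, a protein kinase C substrate of platelets and leukocytes, was at 116 to 372 in ketone libraries and 114 to 174 in PBS libraries, and its highest values were in ketone libraries 3 and 4. Cytip, which binds a regulator of adhesion, was at 30.1 to 91.2 in ketone libraries and 12.3 to 49.3 in PBS libraries. These 3 had adjusted p = 0.0647 to 0.0866, and all 3 passed without ketone library 2.

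Of 16 further pan-leukocyte genes, 12 were tested and 3 rose. The most abundant, Lsp1, was at 934.5 to 1854 in ketone libraries and 1002 to 1631 in PBS libraries (log2 change 0.20, adjusted p = 0.542). Arhgdib, an inhibitor of small GTPases, rose by 0.98 on the log2 scale (adjusted p = 0.0155), with 246 to 603 in ketone libraries and 156 to 244 in PBS libraries. Evi2a was at 141 to 233 in ketone libraries and 202 to 302 in PBS libraries (log2 change -0.53, adjusted p = 0.104). Lsp1 and Evi2a thus did not pass in either direction.

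**Figure D4:**
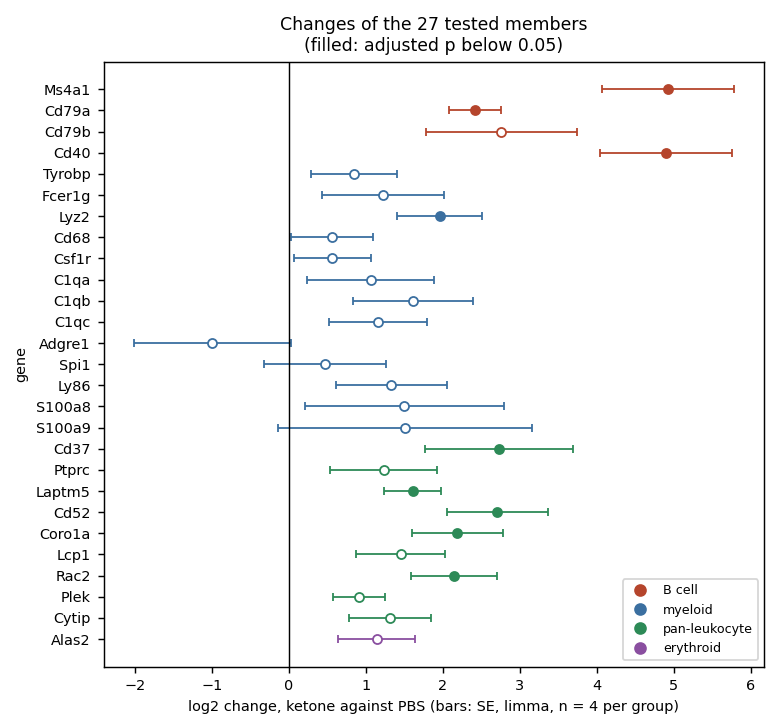
Log2 change between ketone and PBS libraries (points) with its standard error (bars) for the 27 tested members, coloured by class, with filled points for an adjusted p below 0.05. The 3 filled B cell genes lie between 2.42 and 4.93, 12 of 13 myeloid genes are open, and Adgre1 alone lies below 0.

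Promoter sequences are shown for 3 of the members that rose and for Alas2, chosen to give examples with and without a match to motifs of blood lineage factors. RefSeq (GRCm38.p6) gave 25 promoters for 22 of the 36 genes, and the 250 bases before each start were searched on both strands for ATTTGCA (from the octamer of B cell promoters), GAGGAAG (bound by PU.1) and AGATAA (bound by GATA factors). GAGGAAG was found in 5 of the 25 and in 10.6% of all 32851 promoters, AGATAA in 4 and in 9.99%, and ATTTGCA in 0 and in 3.57%. Among the genes that rose, Laptm5 and Cd37 held GAGGAAG on the opposite strand, starting 39 and 24 bases before the start. Alas2 held GAGGAAG at 148 and AGATAA, on the opposite strand, at 86 bases before the start, and Cd79a held none of the 3. Coro1a and Lyz2, which also rose and had a promoter in the table, held none of them either and are not printed. A match describes these letters and is not a binding site. Capitals mark the matches in the 4 sequences, each given from 5′ to 3′ on the gene's strand.
Laptm5, chr4:130913066-130913315, plus strand: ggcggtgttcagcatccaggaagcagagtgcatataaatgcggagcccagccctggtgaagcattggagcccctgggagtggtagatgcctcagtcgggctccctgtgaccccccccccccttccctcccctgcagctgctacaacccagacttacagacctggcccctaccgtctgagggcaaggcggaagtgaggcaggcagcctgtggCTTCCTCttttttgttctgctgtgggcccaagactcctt
Cd37, chr7:45238840-45239089, minus strand: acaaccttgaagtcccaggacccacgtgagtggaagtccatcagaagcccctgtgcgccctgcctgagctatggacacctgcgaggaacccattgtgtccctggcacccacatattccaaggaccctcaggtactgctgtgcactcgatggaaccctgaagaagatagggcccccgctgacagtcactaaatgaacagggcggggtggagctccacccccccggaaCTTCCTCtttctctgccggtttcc
Cd79a, chr7:24897247-24897496, plus strand: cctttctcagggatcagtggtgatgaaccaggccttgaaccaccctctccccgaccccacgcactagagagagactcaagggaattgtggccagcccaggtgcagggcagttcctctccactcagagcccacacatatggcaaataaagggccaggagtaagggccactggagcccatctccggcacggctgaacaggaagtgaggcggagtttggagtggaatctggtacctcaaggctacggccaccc
Alas2, chrX:150547167-150547416, plus strand: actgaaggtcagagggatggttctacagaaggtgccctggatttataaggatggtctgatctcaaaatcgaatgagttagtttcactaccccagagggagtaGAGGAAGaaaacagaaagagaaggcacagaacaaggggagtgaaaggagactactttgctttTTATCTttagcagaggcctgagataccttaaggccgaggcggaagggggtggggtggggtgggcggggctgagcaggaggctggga

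Erythroid transcripts rested on 1 gene. The adult globin genes Hba-a1 and Hbb-bs were listed at 0 in all 8 libraries. The table has 12 globin rows, of which 9 were at 0 throughout, among them all 6 adult alpha and beta globin rows, and the other 3 held 4 reads in all. Globin copies are near identical, and the sources used here do not say how reads shared between copies were counted, so these zeros are uncertain. Alas2, the first enzyme of haem synthesis in red cell precursors (chromosome X, 150547375 to 150570638), was at 445, 79.4, 75.7 and 177 in ketone libraries, against 95.0, 71.4, 36.9 and 77.9 in PBS libraries. Ketone libraries 1 and 4 were above all PBS libraries and ketone libraries 2 and 3 within their range, and Alas2 did not pass (log2 change 1.14 ± 0.50, adjusted p = 0.112). It passed with DESeq2 (log2 change 1.48, adjusted p = 0.0166) and without ketone library 3 (adjusted p = 0.049), while edgeR gave an adjusted p of 0.0556, and without ketone library 1 its log2 change was 0.61. Of 11 further erythroid genes measured, 3 were tested and none passed. Among them were Fech and Bpgm, which other cells also express, at log2 changes of -0.20 (adjusted p = 0.432) and 0.24 (adjusted p = 0.372). The red cell membrane gene Slc4a1, named after its values were seen, did not exceed 4.98 in any ketone library or 2.78 in any PBS library. Among 7 platelet genes, 3 were tested, and Itga2b rose by 0.81 on the log2 scale (142 to 187 in ketone libraries and 62.7 to 115 in PBS libraries, adjusted p = 0.0376), while Pf4 and Ppbp did not pass (adjusted p = 0.448 and 0.380).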

How the data were processed

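RNA of 8 libraries of sorted muscle stem cells, 4 per group, was made into libraries with oligo(dT) priming and 13 to 15 cycles of PCR, per the labels' protocols. The deposited table holds counts that the authors divided by 1 factor per library, here read as a normalized signal per gene. Trim Galore, STAR, featureCounts, Subread and DESeq2 and the build mm10 are named per the submitters' processing notes, but the sources used here give no versions and no handling of strand or shared reads. All values were whole multiples of 1 read within 0.001 read, so reads per library (19174005 to 36870537) were recovered, and these limit the precision of low genes to counting error. A level of 3 reads was taken as the floor of each library for description only. Values at 0 were not raised to it and entered the tests as 0. Of 25239 rows, 2 dates were left out.

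From the deposited values, log2(value + 1) was tested with limma 3.58.1 (two-sided, trended variance, R 4.3.3) over 14022 genes with a mean of at least 10, with Benjamini-Hochberg adjustment and a threshold of 0.05. edgeR 4.0.16 (quasi-likelihood) and DESeq2 1.42.0 were run on recovered reads as alternatives, beside other pseudocounts, filters, scalings and left-out libraries. The limma fit was tested on simulated data. Coordinates and exon lengths came from GENCODE and promoters from RefSeq, both of the same build. All members were named, with the sort marker genes, Pax7 and the 3 genes of each further list with the highest means, and other genes were named after their values were seen. The members and lists were chosen with earlier results of these data known. Searches for protein motifs were not run. Some genes of the further lists are not reported here.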

Additional observations from a re-analysis of the deposited data

Results flagged for a closer look

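In groups of 4, 1 library stood apart from the other 3 by Dixon's criterion in 12 of 62 groups of values. For normally distributed values chance gives about 1 in 20. These were counts, some of them mostly 0, and the genes share libraries, so an excess over chance cannot be read from this. Ketone library 1 did so for 5 genes, PBS library 2 for 4, ketone library 4 for 2 and PBS library 4 for 1. In ketone library 1, Cd79a was at 327 (146 to 153 in the other ketone libraries), Nkg7 at 63.8 (0 to 7.02), Cd37 at 121 (15.0 to 26.1), Ptprc at 299 (21.1 to 30.1) and Coro1a at 372 (30.9 to 88.2). In ketone library 4, S100a8 was at 252 (2.15 to 13.9 in the other ketone libraries) and S100a9 at 264 (0 to 33.2). In PBS library 2, S100a8 was at 70.4 (1.39 to 3.08 in the other PBS libraries), Plek at 174 (114 to 120), Cd40 at 7.35 (0 in the others) and Nkg7 at 1.05 (0 in the others), the last being 1 read. In PBS library 4, Lyz2 was at 537 (302 to 341 in the other PBS libraries).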

How the results depend on the processing

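Over all alternatives, 504 of 576 recomputed single-gene values kept their direction and side of the threshold, 36 newly passed, 24 no longer passed and 12 turned their direction. Against 9 members higher, the count was 4 with a mean of at least 50 (fewer genes tested), 16 with library weights and 15 with DESeq2, and without 1 library it ranged from 7 (without ketone library 4 or PBS library 3) to 17 (without ketone library 2). Members lower were 0 throughout, except 1 without ketone libraries 1 and 4, where 3 rose. Against 3600 genes changed in all, leaving out 1 library gave 2356 (without PBS library 1) to 4070. Class medians of the log2 change ranged, without 1 library, from 3.33 to 4.22 for B cell, 0.91 to 1.94 for T and NK cell, 0.60 to 1.81 for myeloid, 1.28 to 2.00 for pan-leukocyte and 0.61 to 1.46 for erythroid genes. The B cell median was 2.71 with a pseudocount of 5, and the myeloid median was -0.05 without ketone libraries 1 and 4. Without those libraries the log2 change turned to -0.0023 for Tyrobp, -0.21 for Fcer1g, -0.02 for Cd68, -0.44 for Csf1r, -0.24 for C1qa, -0.22 for Spi1, -0.05 for S100a8 and -0.78 for S100a9. Cd68 was at -0.22 without ketone libraries 1 and 2. Adgre1 turned to 0.18 with edgeR and 0.17 with DESeq2, and ranged from -1.80 to 0.17 without 1 library. The causes were not tested. The deviations of same-numbered libraries from their group means had correlations of 0.106, -0.0106, 0.00302 and -0.0614. Those of differently numbered libraries ranged from -0.105 to 0.0969. Such values cannot exclude that same-numbered libraries were handled together, which was not tested. With the number as a replicate block 10 members rose and 3595 genes changed, and Alas2 passed (adjusted p = 0.0289). Depth limits genes near 3 reads per library, among them all T and NK cell members in PBS libraries.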

Other observations

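Mzb1, a chaperone gene of antibody-secreting cells chosen after its values were seen, was at 116, 0, 1.99 and 8.02 in ketone libraries 1 to 4, and was listed at 0 in all PBS libraries. Fcmr, the receptor for IgM, also chosen after its values were seen, was at 135, 0, 22.9 and 15.0 in ketone libraries 1 to 4, against 8.96, 9.45, 1.03 and 1.39 in PBS libraries 1 to 4. Both genes had their highest value in ketone library 1 and were at 0 in ketone library 2.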
